A study of Mus musculus with 5 samples.

Results

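WNT ligands, their Frizzled receptors, the other WNT receptors and co-receptors, the R-spondins with their receptors, the secreted WNT inhibitors and the Axins were followed in whole hearts of newborn mice with and without the long noncoding RNA Charme. The members were taken by symbol, as every gene whose name starts with Wnt, Fzd, Sfrp or Dkk and a digit, plus Frzb, Wif1, Lrp5, Lrp6, Axin1, Axin2, Ror1, Ror2, Ryk, Rspo1, Rspo2, Rspo3, Lgr4 and Lgr5. The count table held 51 such symbols among 49671 genes, and 37 of them had at least 10 counts in at least 2 of the 5 RNA pools. Those 37 were among the 14880 genes that passed the same minimum and were tested. They were 9 of 19 ligands, 10 of 10 Frizzled receptors, 6 of 7 other receptors, 3 of 3 R-spondins, 7 of 10 secreted inhibitors and 2 of 2 Axins.

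All hearts came from C57BL6/J mice at postnatal day 2. CharmeWT pools carried the intact Charme locus, and CharmeKO pools came from animals with a PolyA signal inserted into it. There were 3 CharmeWT pools of 9 hearts each and 2 CharmeKO pools of 3 hearts each, so genotype and pool size cannot be told apart. The comparison asks how the loss of Charme alters RNA levels in the neonatal heart, and the pools were littermates grouped by genotype.

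WNT proteins are secreted lipid-modified ligands that bind Frizzled receptors at the cell surface. With the co-receptors Lrp5 and Lrp6 they stabilise beta-catenin, which the Axin scaffold otherwise marks for destruction, and with Ror and Ryk receptors they act on cell polarity and movement. Secreted inhibitors of the Sfrp, Dkk and Wif families hold ligands or co-receptors back, while R-spondins and Lgr receptors raise the number of Frizzled receptors on the membrane. In the heart the pathway is known for its parts in specifying cardiac progenitors, in cushion and valve formation and in the outflow tract.

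Charme itself had 810, 183 and 276 counts in CharmeWT pools 1 to 3 and 57 and 79 counts in CharmeKO pools 1 and 2. Every CharmeKO pool lay below every CharmeWT pool, the direction that the labels imply. Total counts per pool were between 16721055 and 21646378. CharmeKO pool 1 had 21.1% of its counts on mitochondrial genes, against 9.68% to 11.1% in the other pools. CharmeKO pool 2 had 2.56% of its counts on a list of salivary gland genes, which held 3 to 6 counts in each CharmeWT pool and 0.0276% of the counts in CharmeKO pool 1. The defining cardiomyocyte markers were detected in every pool, with a summed level of 14500 to 19900 FPKM in CharmeWT pools and of 20300 and 18200 FPKM in CharmeKO pools. FPKM counts fragments per kilobase of exon after scaling for library size and composition, and it allows levels of genes of different length to be compared.

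Among the 37 members, 1 was called lower in CharmeKO hearts, the ligand Wnt9a, and 0 were called higher. Calls required an adjusted p under 0.1 from edgeR's quasi-likelihood test, adjusted by Benjamini-Hochberg across all tested genes, together with a group mean of 1 FPKM or more in at least 1 genotype. Over all tested genes 0.524% were called lower and 1.53% were called higher. At an unadjusted p under 0.05 there were 6 members, 5 lower (Wnt9a, Wnt5b, Lrp5, Axin1 and Fzd1) and 1 higher (Wnt2b), where 8.01% of all tested genes were lower and 10.6% higher at that threshold. Among the members that is 13.5% lower and 2.7% higher. Wnt2b passed the count minimum only through the CharmeKO pools, where it was higher, so its direction was nearly fixed by that minimum. The median log2 fold change of the members, CharmeKO over CharmeWT, was -0.05, and that of all tested genes was 0.02. Fold changes of the members ranged from -1.47 to 1.78 on the log2 scale.

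**Figure D1:**
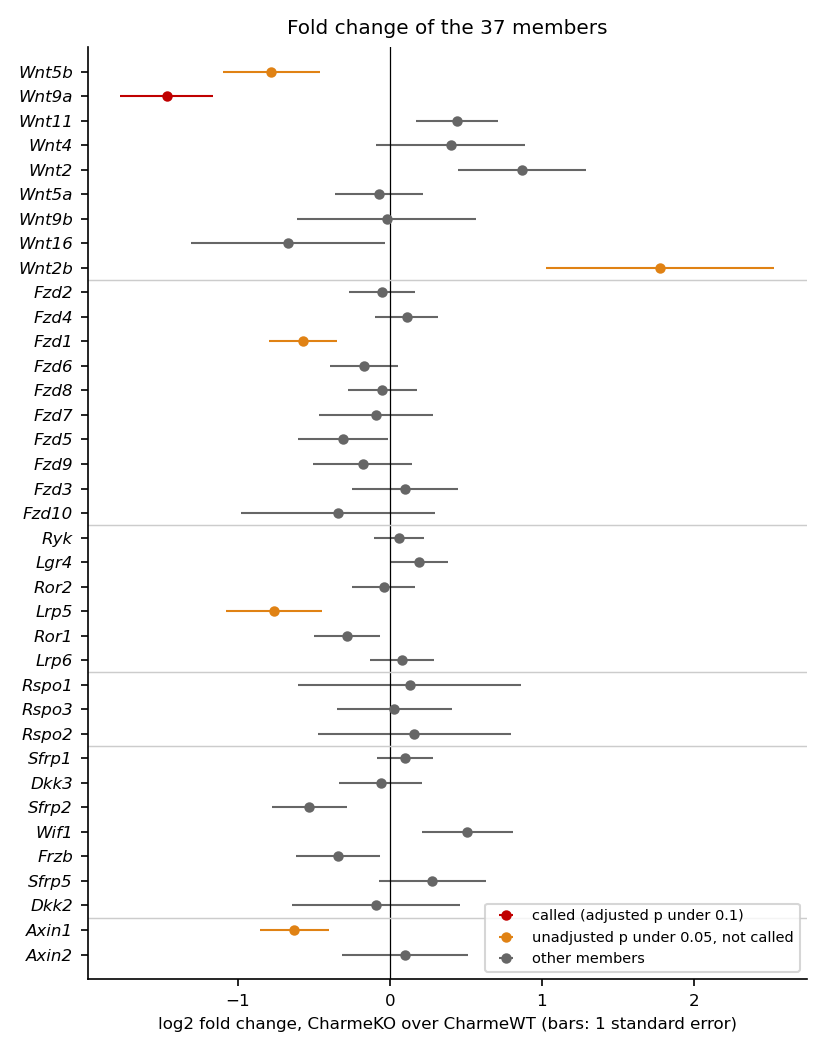
Log2 fold change (CharmeKO over CharmeWT, horizontal axis) of each of the 37 members, grouped from top to bottom as ligands, Frizzled receptors, other receptors, R-spondins, secreted inhibitors and Axins, with bars of 1 standard error. Wnt9a in red, at -1.47, is the called member, and the orange points are the 5 other members with an unadjusted p under 0.05.

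Wnt9a encodes a WNT ligand known from joint and valve development. It lies on chromosome 11 of GRCm38 from 59306928 to 59333552 on the plus strand (ENSMUSG00000000126). Its level was 2.55, 1.97 and 2.61 FPKM in CharmeWT pools 1 to 3 and 0.724 and 0.97 FPKM in CharmeKO pools 1 and 2. Both CharmeKO pools were lower than every CharmeWT pool, and the groups did not overlap. Wnt9a fell by 1.47 on the log2 scale (SE 0.305, adjusted p = 0.0667, edgeR's quasi-likelihood test), with group means of 2.38 ± 0.354 FPKM in CharmeWT (SD, n = 3) and 0.847 ± 0.174 FPKM in CharmeKO (SD, n = 2). The counts behind these levels were 175, 116 and 172 in CharmeWT pools and 34 and 72 in CharmeKO pools. The fall was -1.30 on the log2 scale without CharmeKO pool 1 (adjusted p = 0.0541) and -1.73 without CharmeKO pool 2 (adjusted p = 0.0108), in the same edgeR test. Without CharmeWT pool 1 or pool 3 it was -1.42 and -1.41, with adjusted p = 0.205 and 0.34, and the call was lost. It was also lost when pools were blocked by replicate number (adjusted p = 0.134, edgeR) and at an adjusted p under 0.05. In whole hearts, fewer cells that express a gene and less of its RNA in each cell cannot be told apart, and this holds for every member.

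The region upstream of Wnt9a is shown because it is the member that was called, and that of its close relative Wnt9b because the latter was not. Both are reference sequences from RefSeq on GRCm38.p6, read in the direction of transcription and ending short of the start site. Capitals mark the letters GGGCGG or CCGCCC, the GC box that SP-family factors recognise. The Wnt9a stretch is chr11:59306680-59306919 on the plus strand and the Wnt9b stretch is chr11:103749832-103750071 on the minus strand.
Wnt9a: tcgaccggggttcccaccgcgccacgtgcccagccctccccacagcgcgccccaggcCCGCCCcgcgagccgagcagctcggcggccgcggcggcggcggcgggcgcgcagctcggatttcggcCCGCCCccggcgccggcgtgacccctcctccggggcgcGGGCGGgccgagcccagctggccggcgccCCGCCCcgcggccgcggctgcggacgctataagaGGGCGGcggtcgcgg
Wnt9b: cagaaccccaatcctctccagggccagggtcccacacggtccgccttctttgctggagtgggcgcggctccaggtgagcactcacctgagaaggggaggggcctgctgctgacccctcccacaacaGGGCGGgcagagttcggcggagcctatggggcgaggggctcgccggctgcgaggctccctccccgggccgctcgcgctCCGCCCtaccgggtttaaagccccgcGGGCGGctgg
The Wnt9a stretch had a GC content of 84.2% with 5 GC boxes and 46 CpG dinucleotides, and the Wnt9b stretch 71.7% with 3 GC boxes and 20 CpG dinucleotides. Among all 32851 promoter windows of the same table, 35.7% held a GC box on either strand, and among the 28 windows found for 25 members, 22 held at least 1. The remaining 12 members had no window in the table. A match of these letters is a description of sequence and not a binding site.

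The letters CTTTGAT or ATCAAAG, to which TCF and LEF factors of the canonical pathway bind, were found on either strand in 3.73% of all windows and in 2 of the 28 member windows, those of Wnt5b and Wnt11. Those matches are shown because they were the members holding this motif, with the matching letters in capitals. RefSeq gives 3 start sites with a window for Wnt5b and 2 for Wnt11. The Wnt5b stretch is chr6:119449439-119449468 on the minus strand, inside the gene. Its match begins 71 bases before an internal start site, and the windows of the other Wnt5b start sites held no match. The Wnt11 stretch is chr7:98835050-98835079 on the plus strand, and its match begins 51 bases before the more upstream start site.
Wnt5b: agtaagtctctCTTTGATctgctccctgtc
Wnt11: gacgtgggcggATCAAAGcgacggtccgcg
No match was found in the Wnt9a or Wnt9b stretch, which says only that these letters are absent there.

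By mean CharmeWT level the highest ligand was Wnt5b, a noncanonical ligand related to Wnt5a. Its level was 3.11, 3.07 and 2.99 FPKM in CharmeWT pools and 1.17 and 2.31 FPKM in CharmeKO pools 1 and 2. The 2 CharmeKO pools lay below every CharmeWT pool but far from each other. The log2 fold change was -0.78 (SE 0.319) and was not called, with adjusted p = 0.242 in edgeR's quasi-likelihood test. Without CharmeKO pool 1 it was -0.40, and without CharmeKO pool 2 it was -1.39.

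Wnt11, a noncanonical ligand of the outflow tract, followed Wnt9a in level among the ligands in CharmeWT pools, while in both CharmeKO pools it was above Wnt9a. Its level was 1.21, 1.27 and 1.26 FPKM in CharmeWT pools and 1.42 and 1.93 FPKM in CharmeKO pools. No CharmeWT pool reached either CharmeKO pool. With these values the log2 fold change was 0.44 (SE 0.27, adjusted p = 0.403, edgeR).

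Wnt2, a canonical ligand of the second heart field, differed between the CharmeKO pools. It had 0.969, 0.678 and 0.897 FPKM in CharmeWT pools, 0.848 FPKM in CharmeKO pool 1 and 2.17 FPKM in CharmeKO pool 2. Pool 1 lay within the CharmeWT range and pool 2 above it. The log2 fold change was 0.87 (SE 0.42, adjusted p = 0.298, edgeR), 1.34 without CharmeKO pool 1, where it passed the threshold at adjusted p = 0.0598, and -0.02 without CharmeKO pool 2.

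For Wnt4 and Wnt9b the CharmeKO pools lay on opposite sides of the CharmeWT pools. Wnt4, known from kidney and gonad development, had 0.648, 0.837 and 1.11 FPKM in CharmeWT pools, 0.439 FPKM in CharmeKO pool 1 and 1.76 FPKM in pool 2. Wnt9b, which acts upstream of Wnt4 in the kidney, had 0.484, 0.764 and 0.952 FPKM in CharmeWT pools, 0.172 FPKM in CharmeKO pool 1 and 1.19 FPKM in pool 2. Their log2 fold changes were 0.40 and -0.02, neither of them called.

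The remaining ligands were Wnt5a, Wnt16 and Wnt2b. Wnt5a, the classical noncanonical ligand, had 0.683 to 1.06 FPKM in CharmeWT pools and 0.743 and 0.837 FPKM in CharmeKO pools, inside the CharmeWT range. Wnt16 had 6 to 24 counts per pool. Wnt2b, a canonical ligand, had 8, 0 and 5 counts in CharmeWT pools and 14 counts in each CharmeKO pool, which corresponds to 0.0925, 0 and 0.0602 FPKM against 0.236 and 0.149 FPKM. The CharmeKO pools were higher than every CharmeWT pool, at a level near the count minimum. Its log2 fold change was 1.78 (SE 0.751, adjusted p = 0.251, edgeR), and its level was below 1 FPKM in every pool. With either CharmeKO pool left out it did not pass the count minimum.

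In CharmeWT pools the ligands ran from Wnt5b through Wnt9a, Wnt11, Wnt4, Wnt2, Wnt5a, Wnt9b and Wnt16 to Wnt2b by mean FPKM. Pools of neighbours in that order overlapped for Wnt4 and Wnt2, Wnt2 and Wnt5a, Wnt5a and Wnt9b, and Wnt16 and Wnt2b. The summed level of the 9 ligands was 9.84, 9.66 and 11.1 FPKM in CharmeWT pools and 5.86 and 11.4 FPKM in CharmeKO pools. The CharmeKO pools lay on either side of the CharmeWT pools. The exact two-sided permutation test gave p = 0.7, where 0.1 is the smallest value that 3 against 2 pools allow.

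**Figure D2:**
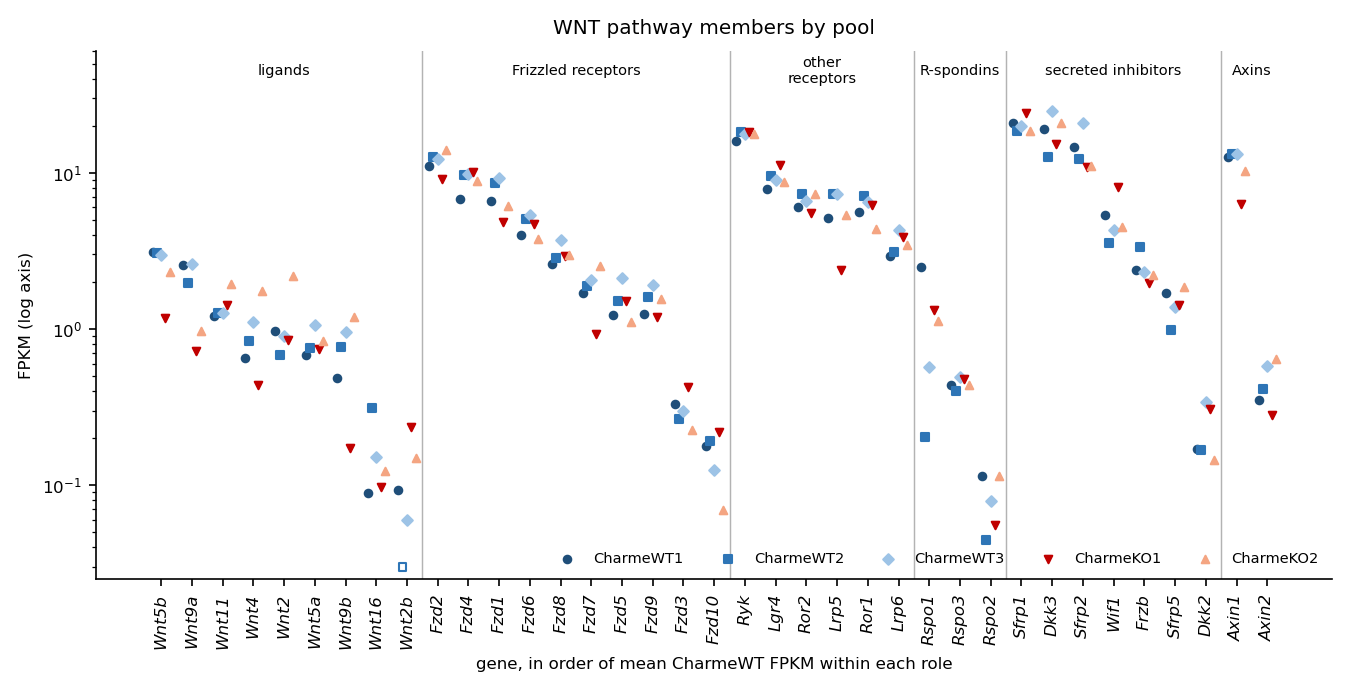
Level of each of the 37 members in FPKM (log axis) in each of the 5 pools, grouped by role and ordered within a role by mean CharmeWT level; blue symbols are CharmeWT pools, red and orange symbols CharmeKO pools. The open symbol at the bottom edge is a level of 0 for Wnt2b in CharmeWT pool 2, and the inhibitors Sfrp1 and Dkk3 and the receptor Ryk stand highest.

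Composition of the ligands within a pool was looked at after the values had been seen, and is given without a test. Wnt9a made up 25.9%, 20.4% and 23.6% of the summed ligand FPKM in CharmeWT pools and 12.4% and 8.47% in CharmeKO pools. The share of Wnt5b was 31.6%, 31.8% and 27.0% against 20.1% and 20.2%. The share of Wnt2 was 9.85%, 7.02% and 8.09% against 14.5% and 18.9%. Each of these shares separated the groups, but shares of the same sum depend on each other. The level of Wnt2 in CharmeKO pool 1, 0.848 FPKM, was within the CharmeWT range, and the ligand sum in that pool was 5.86 FPKM.

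All 10 Frizzled receptors passed the count minimum, and 0 were called in either direction. Fzd2 had the highest mean CharmeWT level, with 11.0, 12.6 and 12.2 FPKM in CharmeWT pools and 9.05 and 14.0 FPKM in CharmeKO pools, which lay on either side. Fzd4, a receptor of endothelial cells, had 6.83, 9.63 and 9.78 FPKM in CharmeWT pools and 10.1 and 8.85 FPKM in CharmeKO pools. Their log2 fold changes were -0.05 (SE 0.217) and 0.11 (SE 0.205).

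Fzd1 stood apart from these. Its level was 6.63, 8.64 and 9.21 FPKM in CharmeWT pools and 4.81 and 6.15 FPKM in CharmeKO pools. The CharmeKO pools lay below every CharmeWT pool, by a narrow margin for pool 2. Fzd1 had a log2 fold change of -0.57 (SE 0.223, adjusted p = 0.227, edgeR), which was not called. Leaving out CharmeKO pool 2 gave -0.77, which passed the threshold at adjusted p = 0.0377.

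Among the other Frizzled receptors, Fzd6 had 3.97 to 5.35 FPKM and Fzd8 2.62 to 3.7 FPKM in CharmeWT pools. Fzd7 had 1.7, 1.87 and 2.06 FPKM in CharmeWT pools and 0.922 and 2.54 FPKM in CharmeKO pools, again on either side. Fzd5 and Fzd9 had CharmeWT means of 1.61 ± 0.449 and 1.58 ± 0.324 FPKM (SD, n = 3), and CharmeWT pools of Fzd4 and Fzd1, of Fzd7 and Fzd5, and of Fzd5 and Fzd9 overlapped. Fzd3 and Fzd10 were below 0.5 FPKM in every pool. Log2 fold changes of the 10 receptors ran from -0.57 to 0.11, with 8 below 0. The summed level was 35.8, 44.2 and 46.8 FPKM in CharmeWT pools and 35.8 and 41.2 FPKM in CharmeKO pools (exact two-sided permutation p = 0.5).

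Of the other receptors, Ryk, a WNT-binding receptor with an inactive kinase domain, had the highest level. It had 16.0, 18.1 and 17.6 FPKM in CharmeWT pools and 18.2 and 17.7 FPKM in CharmeKO pools, a log2 fold change of 0.06 (SE 0.166). Lgr4, a receptor for R-spondins, had 7.85, 9.46 and 8.94 FPKM against 11.2 and 8.68 FPKM. Ror2, a receptor for Wnt5a, had 6.0, 7.26 and 6.57 FPKM against 5.56 and 7.3 FPKM. CharmeKO pool 1 was above every CharmeWT pool in Ryk and Lgr4 and below every one in Ror2, and pool 2 stayed within the CharmeWT range in Ryk and Lgr4.

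Lrp5, a co-receptor for canonical ligands, had 5.15, 7.36 and 7.28 FPKM in CharmeWT pools, 2.4 FPKM in CharmeKO pool 1 and 5.37 FPKM in pool 2. Pool 1 was far below the CharmeWT pools and pool 2 within their range, so the groups overlapped. The log2 fold change was -0.76 (SE 0.316, adjusted p = 0.247, edgeR), -0.29 without CharmeKO pool 1 and -1.46 without CharmeKO pool 2. Its relative Lrp6 had 2.94, 3.1 and 4.28 FPKM in CharmeWT pools and 3.85 and 3.42 FPKM in CharmeKO pools, within the CharmeWT range. The ratio of Lrp5 to Lrp6 level, chosen after the values were seen, was 1.75, 2.38 and 1.7 in CharmeWT pools and 0.624 and 1.57 in CharmeKO pools. Ror1 had a log2 fold change of -0.28 (SE 0.218). The summed level of the 6 receptors was 43.6 to 52.3 FPKM in CharmeWT pools and 47.4 and 46.8 FPKM in CharmeKO pools (exact two-sided permutation p = 0.6).

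The R-spondins were low, and 0 of 3 were called or had an unadjusted p under 0.05. Rspo1 had 2.48, 0.204 and 0.574 FPKM in CharmeWT pools and 1.32 and 1.13 FPKM in CharmeKO pools. CharmeWT pool 1 was far above the other CharmeWT pools, and the CharmeKO pools lay between. Rspo3, expressed in endothelial and coronary tissue, had 0.403 to 0.491 FPKM in CharmeWT pools and 0.481 and 0.435 FPKM in CharmeKO pools. Rspo2 had 4 to 13 counts per pool.

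By mean CharmeWT level, the inhibitors Sfrp1 and Dkk3 were the highest of all members. Sfrp1, which binds WNT ligands, had 20.9, 18.5 and 20.0 FPKM in CharmeWT pools and 24.2 and 18.4 FPKM in CharmeKO pools. Dkk3, a divergent member of the Dickkopf family, had 19.1, 12.6 and 24.9 FPKM against 15.3 and 20.8 FPKM. Their log2 fold changes were 0.10 (SE 0.183) and -0.06 (SE 0.273), and their CharmeWT pools overlapped each other.

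Sfrp2, a secreted Frizzled-related protein of fibroblasts, had 14.6, 12.2 and 20.7 FPKM in CharmeWT pools and 10.9 and 11.1 FPKM in CharmeKO pools. Every CharmeWT pool was above them, though the CharmeWT pools spread widely. Sfrp2 had a log2 fold change of -0.53 (SE 0.246, adjusted p = 0.284, edgeR). The ratio of Sfrp2 to Sfrp1 level, also chosen after the values were seen, was 0.7, 0.657 and 1.03 in CharmeWT pools and 0.45 and 0.603 in CharmeKO pools.

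Wif1, which binds WNT ligands in the extracellular space, had 5.38, 3.54 and 4.27 FPKM in CharmeWT pools, 8.11 FPKM in CharmeKO pool 1 and 4.51 FPKM in pool 2. Only pool 1 was above the CharmeWT pools. The log2 fold change was 0.51 (SE 0.301, adjusted p = 0.383, edgeR), 0.03 without CharmeKO pool 1 and 0.87 without CharmeKO pool 2, where it passed the threshold at adjusted p = 0.0356. Frzb, a relative of the Sfrp proteins known from cartilage, had 2.37, 3.34 and 2.31 FPKM in CharmeWT pools and 1.97 and 2.23 FPKM in CharmeKO pools, below every CharmeWT pool. Its log2 fold change was -0.34 (SE 0.276). Sfrp5 had a log2 fold change of 0.28 (SE 0.351) and Dkk2, at 11 to 25 counts per pool, of -0.09 (SE 0.553). The summed level of the 7 inhibitors was 64.3, 51.3 and 73.9 FPKM in CharmeWT pools and 62.2 and 59.1 FPKM in CharmeKO pools (exact two-sided permutation p = 0.7).

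Axin1 and Axin2 differed in level. Axin1, the scaffold of the destruction complex, had 12.6, 13.1 and 13.2 FPKM in CharmeWT pools and 6.29 and 10.3 FPKM in CharmeKO pools. Its groups did not overlap. For Axin1 the log2 fold change was -0.63 (SE 0.228, adjusted p = 0.201, edgeR), -0.32 without CharmeKO pool 1 and -1.05 without CharmeKO pool 2. Axin2, a target of canonical WNT signalling as well as a scaffold, had 0.353, 0.411 and 0.579 FPKM in CharmeWT pools and 0.283 and 0.643 FPKM in CharmeKO pools, which lay on either side. Its log2 fold change was 0.10 (SE 0.414).

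**Figure D3:**
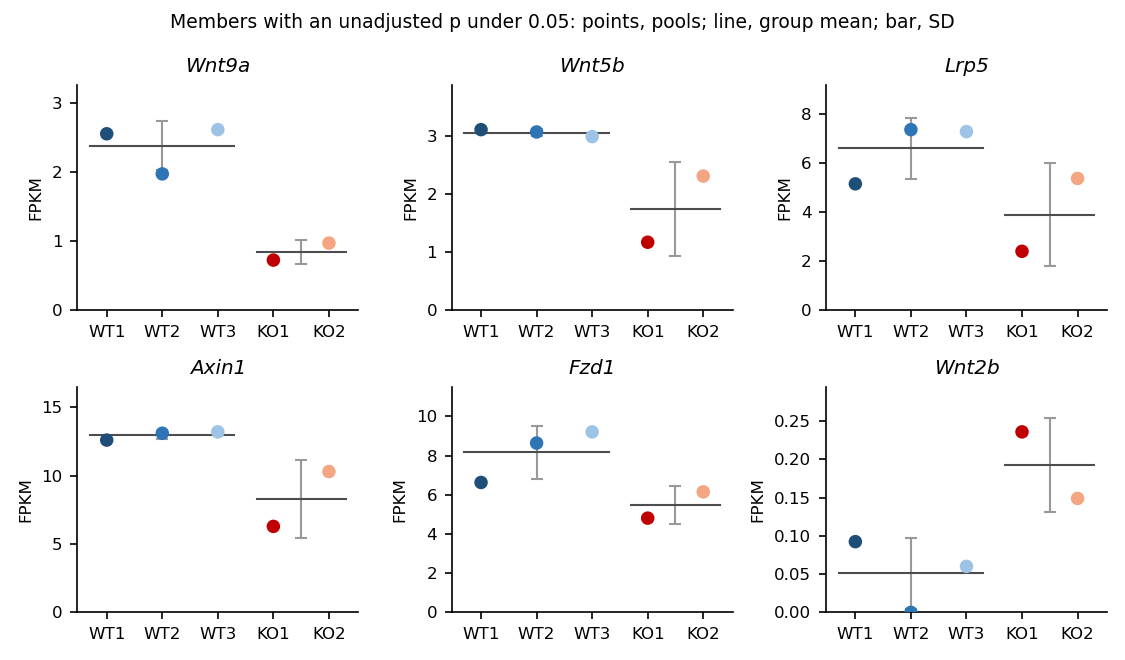
Level in FPKM (axes from 0) of the 6 members with an unadjusted p under 0.05 in each pool; points are pools, horizontal lines group means and bars 1 SD. In Wnt9a both CharmeKO points lie close together, while in Wnt5b, Lrp5 and Axin1 CharmeKO pool 1 lies well below pool 2.

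Across the 37 members, both CharmeKO pools were below every CharmeWT pool in 6 (Axin1, Frzb, Fzd1, Sfrp2, Wnt5b and Wnt9a) and above every CharmeWT pool in 2 (Wnt11 and Wnt2b, the latter through the count minimum as noted). Over all tested genes 18.2% lay below and 17.8% above in this sense, and the members' shares were 16.2% and 5.41%. CharmeKO pool 1 was below and pool 2 above the CharmeWT range in 6 members, Axin2, Fzd2, Fzd7, Ror2, Wnt4 and Wnt9b, or 16.2%, where all tested genes gave 6.81%. The opposite, pool 1 above and pool 2 below, held for Fzd10, Fzd3 and Sfrp1, or 8.11% of members and 6.54% of all tested genes. Both CharmeKO pools were within the CharmeWT range in 8 of the 37 members and in 1690 of the 14880 tested genes, a larger share among the members.

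**Figure D4:**
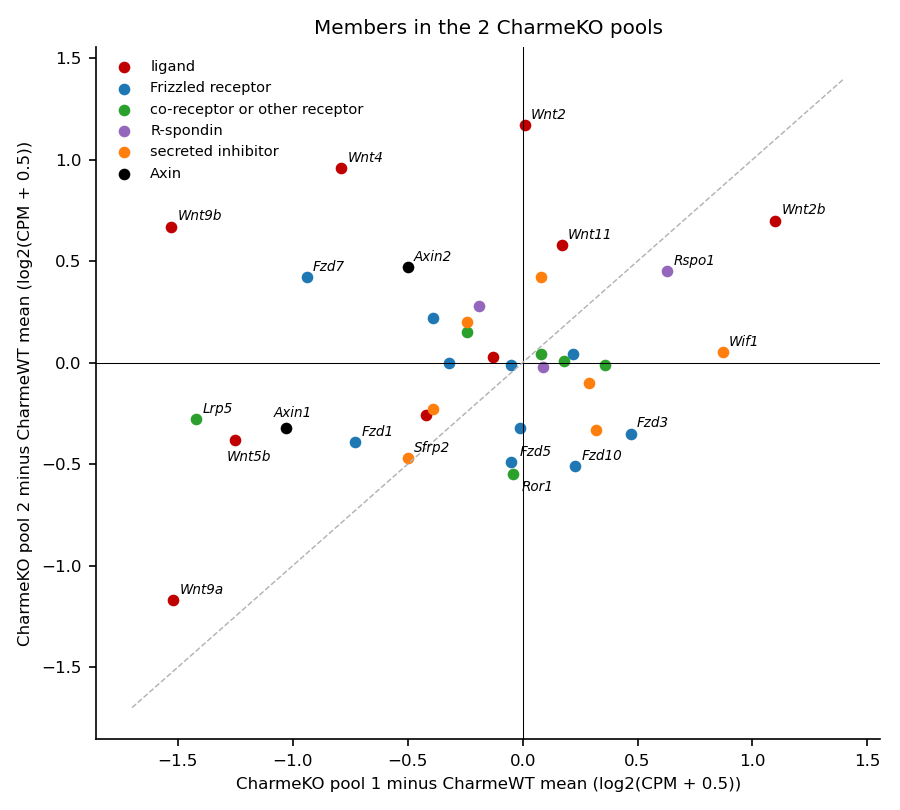
Deviation of each member from the CharmeWT mean, in log2(CPM + 0.5), in CharmeKO pool 1 (horizontal) and CharmeKO pool 2 (vertical), coloured by role; the dashed line marks equal deviations. Wnt9a lies near that line at -1.52 and -1.17, while Wnt9b, at -1.53 and 0.67, and Wnt4, at -0.79 and 0.96, lie in the upper left.

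The GC content of a gene moved with the deviation in CharmeKO pool 1. Across the 14852 tested genes with a value, Spearman's rho between GC content and the log2 difference from the CharmeWT mean was -0.54 in CharmeKO pool 1 and -0.06 in CharmeKO pool 2. Across the 37 members it was -0.34 and 0.28. These are correlations across genes of 1 library each, and the members' median GC content was 53.9% against 50.2% over all tested genes. After each pool was corrected for its trends on length and GC, the log2 fold change of Wnt9a was -1.37 and it was still called (adjusted p = 0.0569, edgeR). With that correction the values were -0.72 for Wnt5b, -0.50 for Lrp5, -0.52 for Axin1 and -0.41 for Fzd1, none of them called.

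Other genes of the pathway were taken from a list of 87 genes, of which 78 were tested. Of these, 1 was called higher and 0 lower. The called gene was Tmed5, a cargo receptor of the secretory route, with 2.9, 2.35 and 2.89 FPKM in CharmeWT pools and 5.08 and 5.07 FPKM in CharmeKO pools. It rose by 0.90 on the log2 scale (SE 0.193, adjusted p = 0.0693, edgeR), and with the length and GC correction the value was 0.62 and was not called. The call was also lost with the replicate block (adjusted p = 0.112) and without CharmeWT pool 1, 2 or 3 (adjusted p = 0.208, 0.222 and 0.34), all in edgeR. In 24 of the 78 the CharmeKO pools were both below every CharmeWT pool and in 7 both above, which is 30.8% and 8.97% of the list against 18.2% and 17.8% of all tested genes. The median log2 fold change of the list was -0.19. The median deviation from the CharmeWT mean was -0.40 in CharmeKO pool 1 and -0.12 in CharmeKO pool 2. At an unadjusted p under 0.05 there were 14 lower and 5 higher, or 17.9% and 6.41% of the list against 8.01% and 10.6% of all tested genes.

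By list, 2 of 5 WNT secretion genes were higher at an unadjusted p under 0.05 (40.0%, against 10.6% of all tested genes). They were Tmed5 and Vps35, the latter at 0.62 (SE 0.254) and at 0.05 without CharmeKO pool 1. All 5 had a positive log2 fold change. None of the 12 tested genes of receptor turnover and co-receptors was called. The largest log2 fold changes there were those of Sost, a secreted inhibitor of Lrp5 and Lrp6, at -1.53 (SE 0.384, adjusted p = 0.108, edgeR), and of Kremen1, a receptor for Dkk proteins, at -0.62 (SE 0.21). Among 17 genes of the destruction complex and Dishevelled, 6 were lower at an unadjusted p under 0.05, or 35.3% against 8.01% of all tested genes. The largest value was that of Apc2, a relative of Apc with a mean under 1 FPKM in both genotypes, at -0.99 (SE 0.35). Ctnnbip1, an inhibitor of beta-catenin, followed at -0.61 (SE 0.218), and Dvl2 at -0.56 (SE 0.247). With the length and GC correction these 6 genes were at -0.63 (Apc2), -0.54 (Ctnnbip1), -0.44 (Btrc), -0.32 (Dvl2), -0.23 (Csnk1e) and -0.21 (Dvl3). The median log2 fold change of the 17 genes was -0.18 without that correction and -0.21 with it. Among 14 TCF/LEF factors and co-factors, 2 were lower at that threshold (14.3%), the beta-catenin co-factors Bcl9, at -0.74 (SE 0.206), and Pygo1, at -0.53 (SE 0.213), while Bcl9l, at -0.60 (SE 0.279), did not pass it. Among 8 tested feedback targets, 1 was higher at that threshold (12.5%, against 10.6% of all tested genes), Nkd2 at 0.60 (SE 0.266), while Nkd1, at -0.57 (SE 0.285), did not pass it. Of 26 genes of the polarity and calcium branch, 4 were lower (15.4%; Prickle1, Prickle2, Prickle3 and Camk2a) and 1 higher (3.85%), Plcb4 at 0.60 (SE 0.224). Vangl2 had the largest value, -0.62 (SE 0.286), and did not pass that threshold.

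Markers of cell types that express members were read beside them. The summed level of 10 endothelial markers was 229, 279 and 260 FPKM in CharmeWT pools and 198 and 238 FPKM in CharmeKO pools, and 0 were called. The 6 valve markers summed to 25.9, 27.5 and 28.8 FPKM against 22.9 and 22.5 FPKM, and the 10 fibroblast markers to 683, 564 and 599 FPKM against 663 and 780 FPKM, with 0 called in either list. Of the valve markers 3 had a positive and 3 a negative log2 fold change, with a median of -0.07. Prox1 was the only valve marker with both CharmeKO pools below every CharmeWT pool (10.2, 10.7 and 11.6 FPKM against 7.84 and 6.46 FPKM). In each of the other valve markers the groups overlapped. The part of valve cells in the level of Wnt9a was not tested. The 10 epicardial and mesothelial markers summed to 54.0, 35.7 and 37.6 FPKM against 70.7 and 148 FPKM, with 2 called higher. Krt8, a keratin of many simple epithelia, gave 83.3 FPKM of the sum in CharmeKO pool 2 and 4.05 FPKM in CharmeKO pool 1. Without it, a step taken after the values were seen, the list summed to 52.1, 34.5 and 36.7 FPKM in CharmeWT pools and 66.7 and 64.9 FPKM in CharmeKO pools. The salivary, adipose and epidermal lists were highest in CharmeKO pool 2. Adipose sums were 141 to 179 FPKM in CharmeWT pools, 189 FPKM in CharmeKO pool 1 and 936 FPKM in pool 2. Epidermal sums were 0.578 to 1.3 FPKM, 0.827 FPKM and 14.5 FPKM in the same order. Wnt2 and Wnt4 were among 10 of the 37 members above the CharmeWT range in CharmeKO pool 2 (27.0%, against 30.4% of all tested genes). Other lists with called members included G2/M cell cycle genes (7 of 10 called higher), erythroid genes (3 of 7 called higher), skeletal muscle genes (1 of 7 called higher and 5, or 71.4%, with both CharmeKO pools above) and smooth muscle and pericyte genes (1 of 9 called higher, 4, or 44.4%, with both CharmeKO pools below, median log2 fold change -0.51). Over all tested genes 1.53% were called higher, 17.8% had both CharmeKO pools above and 18.2% both below. The part of any of these lists in the members' levels was not tested.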

How the data were processed

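RNA from whole-heart pools was sequenced after stranded mRNA library preparation. Per the paper's methods, the authors trimmed reads with Cutadapt and Trimmomatic, discarded reads shorter than 35 nucleotides, mapped the rest with STAR (GRCm38) and took STAR's reverse-strand fragment counts for Ensembl release 87 genes. The deposited values used here are raw counts per gene, without normalization and without molecular identifiers. A deposited FPKM table, written with decimal commas, was not used, and FPKM was computed from the counts instead. Columns were matched to pools by the sample titles.

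Genes reaching 10 counts in 2 or more pools were scaled by TMM and tested for genotype with edgeR's quasi-likelihood test (edgeR 4.0.16, limma 3.58.1, R 4.3.3), which took the place of the likelihood ratio test of the paper's methods. P-values were adjusted by Benjamini-Hochberg across all of these genes. The call threshold was an adjusted p of 0.1 with a mean of 1 FPKM or more in either genotype. FPKM used union exon lengths of GENCODE M21 on GRCm38, to which 49411 gene identifiers matched, and 23 tested genes without a length were given 1 kb. GC content came from GENCODE M21 transcripts. Standard errors were obtained by dividing the absolute log2 fold change by the root of F. Summed levels were compared with exact permutation tests over pools. Deviations of single pools used log2(CPM + 0.5). The fit was tested on simulated data.

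Named genes were those called, those at an unadjusted p under 0.05, the 3 highest in each role, and other members could be named with their values. Of the pathway lists, called genes or the 2 with the largest fold change and at least 1 FPKM were named. Apc2, Pygo1, Vps35, Gpc3, Btrc, Csnk1e, Dvl3, the Prickle genes, Camk2a, Prox1, Aldh1a2, Wt1, Tbx18 and Krt8 were named after their values were seen. Members and lists were chosen with earlier results of these data known. P-values from edgeR set the genotype difference against a spread between pools that is moderated across genes. The spread between single hearts was not measured. Alternatives were the likelihood ratio test, DESeq2 1.42.0, the legacy form of the test, other normalizations and filters, no FPKM minimum, a stricter threshold, the replicate number as a block, a length and GC correction with splines of 4 degrees of freedom, the exclusion of mitochondrial and salivary genes, and each pool left out in turn.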

Additional observations from a re-analysis of the deposited data

How the results depend on the processing

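With 1 pool left in a group, that pool was taken to vary like those of the other genotype. The number of members called lower, 1 as reported, was 0 at an adjusted p under 0.05, 0 with the replicate block (Wnt9a at -1.40, adjusted p = 0.134, edgeR) and 0 with the block and the length and GC correction. It ranged from 0 to 6 when 1 pool was left out, with 0 without CharmeWT pool 1 or pool 3 and 6 without CharmeKO pool 2 (Wnt9a, Axin1, Lrp5, Wnt5b, Fzd7 and Fzd1). Members called higher ranged from 0 to 1, the 1 being Wnt2 without CharmeKO pool 1 and Wif1 without CharmeKO pool 2. Members at an unadjusted p under 0.05 ranged from 1 to 8. Their median log2 fold change ranged from -0.13 to 0.10, with 0.08 under the replicate block and 0.10 under the block with the correction. The log2 ratio of summed ligand level ranged from -0.86 without CharmeKO pool 2 to 0.16 without CharmeKO pool 1. Pathway genes called higher were 2 with DESeq2, 2 with the likelihood ratio test, 0 at an adjusted p under 0.05, 0 with the length and GC correction, 0 with the replicate block, 0 with the block and the correction, and 0 to 8 with a pool left out. Pathway genes called lower were 3 with DESeq2, 2 with the likelihood ratio test, 1 with the correction and 0 to 27 with a pool left out. The cause was not tested. Over all tested genes 305 were called, against 933 with the likelihood ratio test, 1122 with DESeq2, 111 at an adjusted p under 0.05, 131 with the block and the correction, and 0 to 4607 with a pool left out. Without CharmeWT pool 3, edgeR called 0 and 1315 genes had an unadjusted p under 0.05. Replicate numbers 1 and 2 are shared by both genotypes, and the labels do not say whether same-numbered pools share litters. Deviations of same-numbered pools from their group means correlated at 0.137 and 0.0778. With 2 CharmeKO pools those deviations mirror each other, so the correlations cannot settle this. The block moved the 305 calls to 210. Wnt9a was called with the likelihood ratio test and DESeq2 (adjusted p = 0.00204 and 0.00168). The deposited FPKM table was not run as an alternative.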

Other observations

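The 14 symbols below the count minimum reached 10 counts in at most 1 pool. Wnt3, Wnt3a, Wnt8a, Wnt8b and Dkk4 had 0 counts in all 5 pools. Wnt6 had 5, 2 and 5 counts in CharmeWT pools, 1 count in CharmeKO pool 1 and 26 counts in CharmeKO pool 2. Sfrp4 had 1, 2 and 6 counts against 1 and 12, and Lgr5, a receptor for R-spondins known from stem cells, 1, 2 and 0 counts against 2 and 7. Wnt10a, a ligand of skin appendages and teeth, had 0 counts in each CharmeWT pool, 1 in CharmeKO pool 1 and 8 in CharmeKO pool 2, and Wnt10b had 0, 0 and 1 against 0 and 6. In each of these 5 genes CharmeKO pool 2 had the highest raw count, and this pool also had the most counts in total (21646378). No share over other genes of low count was taken. CharmeKO pool 2 is also the pool with the highest salivary, adipose and epidermal sums. The part of those tissues in the counts was not tested. Wnt7b had 10, 1 and 1 counts in CharmeWT pools and 1 and 6 in CharmeKO pools, and Wnt1, Wnt7a and Dkk1 had at most 3 counts in any pool.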
